A study of Ambystoma mexicanum with 6 samples.

Results

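NOX1, NOXO1 and peroxidasin (PXDN) are enzymes and an accessory protein that make or use reactive oxygen, and their RNA was examined in regenerating limbs of the axolotl, Ambystoma mexicanum. Members were all transcripts of 3 assembled genes of the transcriptome: c1074572_g1, whose best protein hit by blastx was human NOX1, c1079274_g1, whose best hit was mouse NOXO1, and c1076922_g10, whose best hit was human PXDN. These genes held 5 of the 1554055 transcripts and were 3 of the 1388798 assembled genes in the deposited matrix. The genes were chosen by their levels in these DMSO and iMDK libraries, so that the differences between treatments below are a description and no test of them is used. All 3 names rest on best hits, and the species part of a name does not give the origin of the RNA.

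The series compared limbs treated with the compound iMDK with limbs given its solvent DMSO alone (3 libraries per group). The paper describes iMDK as an inhibitor of midkine, a secreted growth factor. It adds that the direct target of iMDK is not known and that non-specific effects cannot be discounted. Animals were juvenile white axolotls immersed in the solution, and both groups were amputated and treated from amputation until collection at 11 days post-amputation (dpa). The methods describe the libraries as biological triplicates. The labels name no transgene or mutation, and RNA came from homogenized regenerating limb tissue that was not sorted by cell type.

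NOX1 is the catalytic subunit of an NADPH oxidase, a membrane enzyme that moves electrons from NADPH to oxygen and so makes superoxide. In mammals it is best known in epithelia such as that of the colon, where it works only together with partners: the organizer NOXO1, which brings the complex together at the membrane, an activator, the membrane subunit p22phox and the GTPase Rac. PXDN is a secreted heme peroxidase that uses hydrogen peroxide and bromide to cross-link collagen IV in basement membranes. In tadpoles of the frog Xenopus, reactive oxygen made after amputation is needed for regeneration of the tail.

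All values are TPM, the share of a transcript among all transcripts of a library, a level already corrected for transcript length, multiplied by a scaling factor per library (TMM). The depth of the libraries is unknown because TPM keeps no read totals. The number of transcripts above 0 ranged from 126965 (iMDK 1) to 198094 (DMSO 2), and correlations of log2 values were 0.773 to 0.806 within groups and 0.733 to 0.77 between groups. Markers of epithelium and of connective tissue were detected in every library. The 10 epithelial marker genes (keratins, plakophilins and POF1B) summed to 9044 to 13409 TPM in the DMSO libraries and 12742 to 14722 TPM in the iMDK libraries. The 4 connective tissue genes summed to 420 to 1335 and 979 to 1024 TPM.

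NOX1 RNA was lower in every iMDK library than in every DMSO library. Its level was 5.50, 3.68 and 9.36 TPM in DMSO 1, 2 and 3 and 1.89, 1.29 and 3.17 TPM in iMDK 1, 2 and 3. DMSO 3 was the highest of the 6 libraries and iMDK 2 the lowest, and the groups were separated by 0.512 TPM between DMSO 2 and iMDK 3. The means were 6.18 ± 2.90 and 2.12 ± 0.963 TPM (SD, n = 3 per group), which puts DMSO at 2.92 times iMDK. All 3 iMDK libraries lay below all 3 DMSO libraries for 8.23% of all tested assembled genes, and above them for 8.38%. The difference of log2(value + 0.5) was -1.33 ± 0.43 (SE). A single transcript, c1074572_g1_i1, carried the whole level, so no division of reads between isoforms enters this value. In bulk tissue, fewer cells of a type and less RNA per cell cannot be told apart.

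The organizer NOXO1 was measured at a higher level than the oxidase and was likewise lower in every iMDK library. Its summed level was 16.6, 30.2 and 55.4 TPM in DMSO 1, 2 and 3 and 7.04, 7.93 and 16.2 TPM in iMDK 1, 2 and 3. DMSO 3 was again the highest library and iMDK 3 the highest of its group, and the groups came within 0.358 TPM of each other between DMSO 1 and iMDK 3. The means were 34.1 ± 19.7 and 10.4 ± 5.08 TPM (SD, n = 3 per group), with DMSO at 3.27 times iMDK and a log2 difference of -1.59 ± 0.49 (SE). With the TMM scaling undone, the lowest DMSO library was at 16.4 TPM and the highest iMDK library at 16.1 TPM. After quantile normalization they were at 16.55 and 16.48 TPM, and median-of-ratios scaling left no overlap either. Such scalings act on the same values by which the gene was chosen, so the separation is no sign of stability. Of its transcripts, c1079274_g1_i2 held at least 96.7% of the sum in every library. The other, c1079274_g1_i1, was listed at 0 in 4 libraries and detected only in DMSO 2 (0.215 TPM) and iMDK 2 (0.26 TPM), and did not reach the filter for testing, which asked for 1 TPM or more in 3 or more libraries.

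PXDN went the other way and was higher in every iMDK library than in every DMSO library. Its summed level was 9.28, 7.67 and 10.5 TPM in DMSO 1, 2 and 3 and 15.3, 20.5 and 14.8 TPM in iMDK 1, 2 and 3. iMDK 2, the lowest library for NOX1, was the highest for PXDN, and a gap of 4.27 TPM lay between the groups. The means were 9.16 ± 1.44 and 16.9 ± 3.18 TPM (SD, n = 3 per group), with iMDK at 1.84 times DMSO and a log2 difference of 0.84 ± 0.21 (SE).

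**Figure D1:**
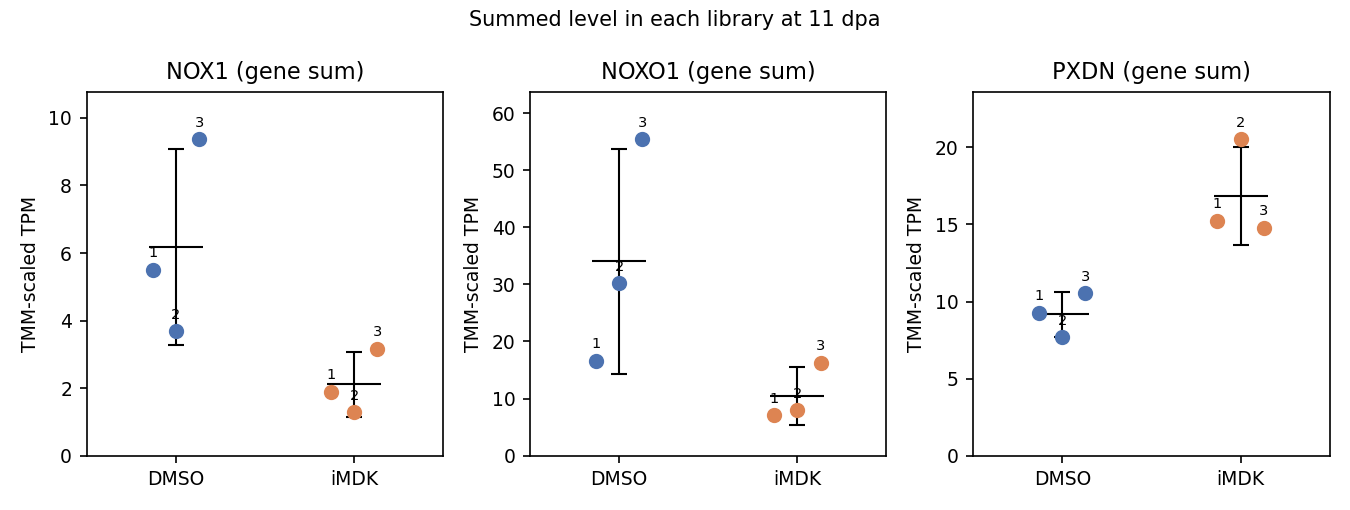
Summed level of NOX1, NOXO1 and PXDN (vertical axes, TMM-scaled TPM, starting at 0) in the DMSO and iMDK libraries, with the replicate number beside each point, the mean as a horizontal line and error bars of 1 SD (n = 3 per group). NOX1 and NOXO1 were lower in all 3 iMDK libraries and PXDN was higher in all 3, with DMSO 3 the highest library for NOX1 and NOXO1.

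The difference in PXDN lay in its main transcript. The transcript c1076922_g10_i2 was at 6.22, 7.67 and 8.79 TPM in DMSO 1, 2 and 3 and 13.8, 16.8 and 13.3 TPM in iMDK 1, 2 and 3, a log2 difference of 0.92 ± 0.22 (SE). It made up 67.0 to 100% of the sum in DMSO and 82.0 to 90.7% in iMDK. The minor transcript c1076922_g10_i1 overlapped between groups, at 3.06, 0 and 1.74 TPM in DMSO against 1.42, 3.68 and 1.51 TPM in iMDK. Its value in DMSO 2 is listed at 0, which can be a failed estimate where kallisto divides reads among similar transcripts, and leaving out that library turned its log2 difference from 0.67 to -0.16. The component c1076922 of the assembly, a set of sequences grouped because they shared sequence, contained 15 assembled genes, and 9 of them had a value above 0. The most abundant of these, c1076922_g3, has no name in the sources used here and ranged from 601 to 944 TPM in the DMSO libraries and from 921 to 1194 TPM in the iMDK libraries. Whether reads were shared between it and PXDN was not tested. The component of NOX1 contained 2 assembled genes, of which only c1074572_g1 was above 0, and that of NOXO1 contained no other gene.

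**Figure D2:**
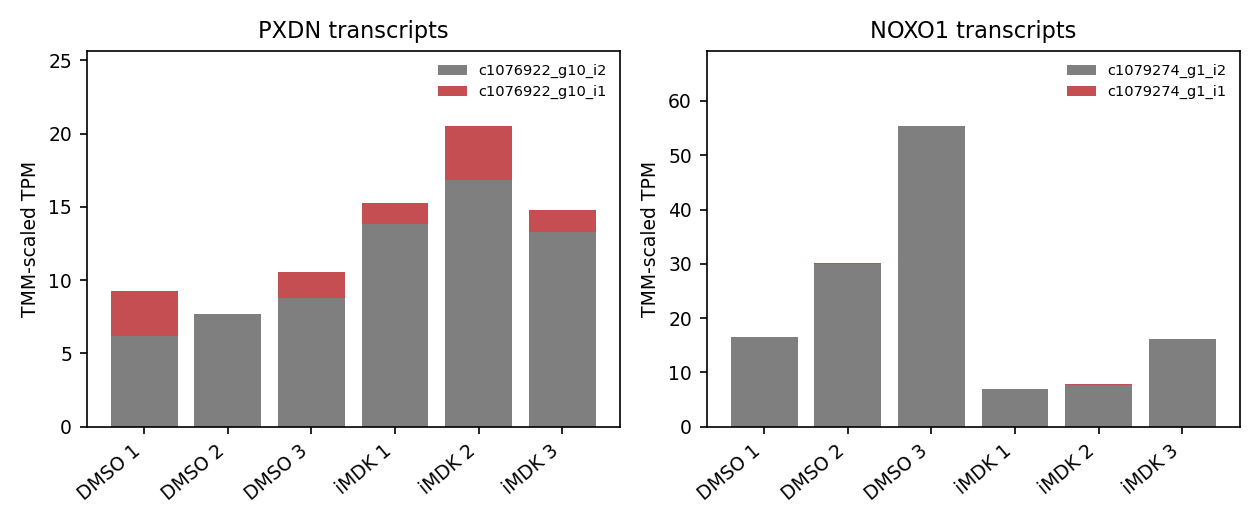
Stacked levels of the transcripts of PXDN (left) and NOXO1 (right) in each library (vertical axis, TMM-scaled TPM). The transcript c1076922_g10_i2 carried the higher PXDN level of the iMDK libraries, c1076922_g10_i1 was listed at 0 in DMSO 2, and c1079274_g1_i2 carried nearly all NOXO1 RNA.

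By their means, NOXO1 and PXDN changed places between treatments. In iMDK 3, however, NOXO1 (16.2 TPM) was still above PXDN (14.8 TPM), as in every DMSO library. In DMSO, NOXO1 was highest, with all 3 libraries above every library of PXDN and NOX1, while the ranges of PXDN (7.67 to 10.5 TPM) and NOX1 (3.68 to 9.36 TPM) overlapped. In iMDK, PXDN was highest by its mean but its range of 14.8 to 20.5 TPM overlapped with that of NOXO1 (7.04 to 16.2 TPM), and NOX1 was below both without overlap (1.29 to 3.17 TPM). Among the 44342 assembled genes tested, 71.9% had a lower DMSO mean than NOX1 and 44.4% a lower iMDK mean. For NOXO1 these shares were 92.3 and 80.3%, and for PXDN 78.4 and 86.3%. The ratio of PXDN to NOX1 within a library was 1.69, 2.08 and 1.12 in DMSO 1, 2 and 3 and 8.08, 15.95 and 4.67 in iMDK 1, 2 and 3.

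Spread within a group differed among the genes. NOX1 varied 2.54-fold between the lowest and highest DMSO library and 2.47-fold in iMDK, and NOXO1 varied 3.34-fold and 2.31-fold. PXDN varied 1.37-fold and 1.39-fold. The SD of log2 values within groups was 0.57 for NOX1, 0.75 for NOXO1 and 0.24 for PXDN, beside a median of 0.59 over all tested assembled genes. A smaller SD than that of PXDN was found in 16.5% of genes, which were not matched to it by level.

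Whether NOX1 and its organizer vary together was asked next. Library 3 had the highest level of both genes in DMSO and in iMDK. Libraries 1 and 2 were in opposite order, since NOX1 was higher in library 1 and NOXO1 in library 2 in either group. The ratio of NOXO1 to NOX1 was 3.02, 8.19 and 5.91 in DMSO 1, 2 and 3 and 3.73, 6.17 and 5.12 in iMDK 1, 2 and 3. Its means were 5.71 ± 2.59 and 5.01 ± 1.22 (SD, n = 3 per group), and the groups overlapped in the ratio although they did not in either level. As a description over the 6 libraries, Pearson's r of the log2 sums was 0.89 and Spearman's rho 0.89. That r contains the difference between treatments, because the groups separated in both genes, and r of the deviations from each group's own mean was 0.69. The relation within groups was not tested. Of the 44341 other assembled genes, 364 had a higher r with NOX1 than NOXO1 had, and 342 had a higher r with NOXO1 than NOX1 had. These counts use the r that contains the difference between treatments, and none was made for the deviations. Since the genes were chosen with these values known, the counts are only a description. For PXDN, r of the deviations was 0.074 with NOX1 and 0.0086 with NOXO1.

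**Figure D3:**
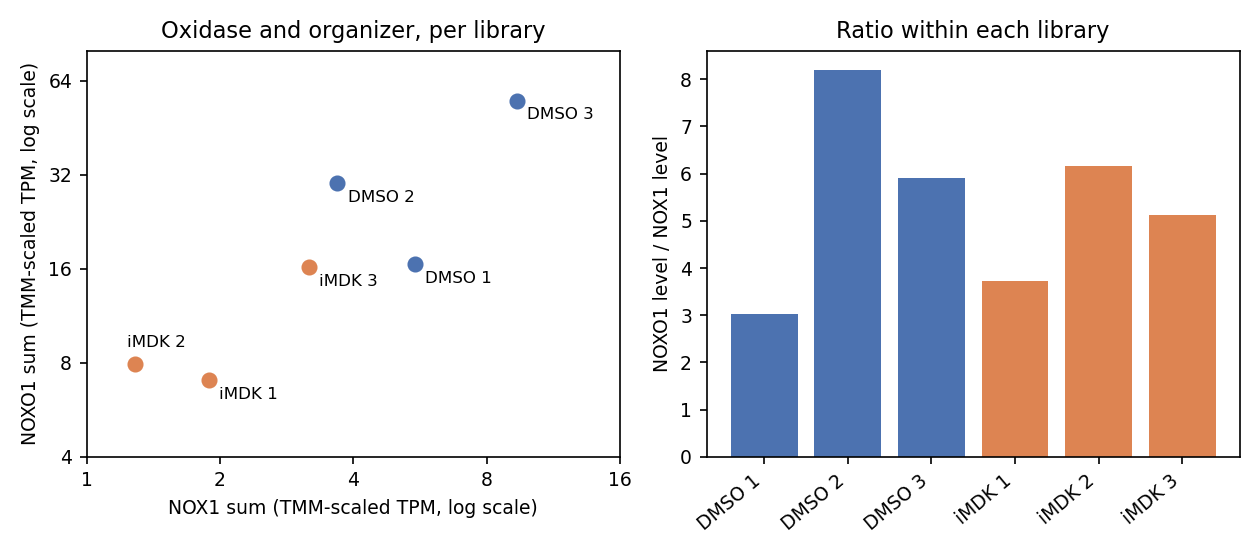
Left, NOXO1 sum against NOX1 sum in each library (both axes TMM-scaled TPM on a log scale), with DMSO in blue and iMDK in orange. Right, the ratio of NOXO1 to NOX1 in each library, which spans 3.02 to 8.19 in DMSO and 3.73 to 6.17 in iMDK.

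Genes had a blastx name here only if the study listed a transcript of theirs as differing in its skin flap experiment. Among 1256 assembled genes with such a name, those most like each member were taken by r of log2 sums over the 6 libraries, given with no test. These r contain the difference between treatments, because the groups separated in each member, and r of the deviations was not computed for these genes. The genes were as follows. For NOX1 they were RN145 (RN145_MOUSE, r = 0.99), a ubiquitin ligase of the endoplasmic reticulum, MTM1 (MTM1_XENTR, r = 0.98), a phosphoinositide phosphatase, and ITAE (ITAE_HUMAN, r = 0.96), the integrin alpha E that binds E-cadherin on epithelial cells. ITAE was at 11.3, 5.73 and 14.2 TPM in DMSO 1, 2 and 3 and 4.80, 2.02 and 5.68 TPM in iMDK 1, 2 and 3. RN145, MTM1 and ITAE all had the same order of libraries as NOX1 within each group. They were picked by r over these same libraries, so nothing is read from that order. For NOXO1 they were PLS1 (PLS1_RAT, r = 0.95), a phospholipid scramblase, POL3 (POL3_DROME, r = 0.94), a polyprotein of a mobile element, and FTSJ1 (FTSJ1_HUMAN, r = 0.94), a methyltransferase of transfer RNA. For PXDN they were CRVP (CRVP_HOPST, r = 0.97), a cysteine-rich secreted protein, EVI2A (EVI2A_HUMAN, r = 0.96) and MMP13 (MMP13_XENLA, r = 0.96), a collagenase whose sum ranged over 70.8 to 86.7 TPM in DMSO against 143.5 to 218 TPM in iMDK.

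Across all features, limma with Benjamini-Hochberg adjustment called (adjusted p under 0.05 and a fold above 2) 0.541% of 51718 tested transcripts and 0.0541% of 44342 tested assembled genes. Of the 5 member transcripts 4 were tested and 0 were called by limma, and of the 3 sums 0 were called, while 3 transcripts and 3 sums had an unadjusted p under 0.05, as did 11.2% of all transcripts and 10.7% of all assembled genes. The groups did not overlap for 3 of the 4 tested member transcripts and for the 3 sums, beside 17% of all tested transcripts and 16.6% of all tested assembled genes. Since the genes were chosen with these values known, nothing is read from these counts.

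Cell type markers were read beside these values. The epithelial sum was 9044, 9444 and 13409 TPM in DMSO 1, 2 and 3 and 14116, 12742 and 14722 TPM in iMDK 1, 2 and 3. DMSO 3, the highest library for NOX1 and NOXO1, was the highest DMSO library for epithelial markers too. The iMDK mean of 13860 TPM lay above the DMSO mean of 10633 TPM, whereas NOX1 and NOXO1 were lower in iMDK. The epithelial sums overlapped between groups, since DMSO 3 was above iMDK 2. A pattern led by the keratin K2C5 (K2C5_RAT) was seen here, at 4794 to 7362 TPM in DMSO and 7219 to 8348 TPM in iMDK. Another assembled gene named K2C5 (K2C5_PANTR) did not share it, at 205 to 265 TPM in DMSO and 175 to 338 TPM in iMDK. By log2 difference, 8 of the 10 gene sums lay above 0 and 2 below. Of the 11 tested epithelial marker transcripts limma called 0, 1 had an unadjusted p under 0.05, and 8 lay above 0 and 3 below. The 4 phagocyte genes (MPEG1, C1QA and EMR1) summed to 426, 340 and 1980 TPM in DMSO 1, 2 and 3 and to 2277, 498 and 1543 TPM in iMDK 1, 2 and 3. That pattern was led by MPEG1 (MPEG1_HUMAN) and was not seen in C1QA, at 36.2 to 50.4 TPM in DMSO and 36.3 to 46.3 TPM in iMDK. Of the phagocyte gene sums, 3 lay above 0 by log2 difference and 1 below. No marker gene of the epithelium, connective tissue, phagocytes, erythrocytes, endothelium or muscle was at 0 in any library. The 4 erythrocyte genes summed to 6.90 to 8.49 TPM in DMSO against 36.4 to 74.8 TPM in iMDK. Limma called 1 of their 2 tested transcripts higher and 2 of their 4 gene sums, and 3 sums had an unadjusted p under 0.05. In 3 of the 4 genes, including both beta globins, every iMDK library was above every DMSO library. The alpha globin HBA2 overlapped at 3.74 to 4.99 TPM in DMSO and 2.72 to 5.30 TPM in iMDK. The 2 endothelial genes summed to 14.43 to 21.04 TPM in DMSO and 20.99 to 33.01 TPM in iMDK, with overlap. Most of this was PLVAP, at 13.2 to 20.4 TPM in DMSO and 19.9 to 32.1 TPM in iMDK. ROBO4 was at 0.687 to 1.36 TPM in DMSO and 0.9 to 1.52 TPM in iMDK. The muscle myosin MYH3 was at 1.05 to 2.59 TPM in DMSO and 2.23 to 5.04 TPM in iMDK, without a tested transcript. For connective tissue, limma called 0 of 2 tested transcripts and 0 had an unadjusted p under 0.05. For phagocytes it called 0 of 3, with 0 at an unadjusted p under 0.05, and for endothelium 0 of 2, also with 0. Over gene sums limma called 0 for connective tissue, phagocytes and endothelium, and 1 of 2 endothelial sums had an unadjusted p under 0.05. The part of these cell types in the NOX1, NOXO1 and PXDN values was not tested.

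The enzymes around the oxidase were taken as lists by name, each whole within the named transcripts. Names were available only for transcripts that the study listed as differing between limbs with a sutured skin flap and normal regenerating limbs. The lists are therefore not complete families of enzymes. These lists were drawn up with earlier results of the same libraries known, so their counts and calls are not independent evidence, and a transcript that was not called is not shown to be unchanged. The antioxidant enzymes, which remove peroxides or conjugate their products, had 8 tested transcripts, of which limma called 0, 1 had an unadjusted p under 0.05, and the median log2 difference was 0.29, beside a median of -0.02 over all tested transcripts. Over its 6 gene sums the median was lower, at 0.10, beside -0.01 over all tested assembled genes. The transcript with the smallest p was thioredoxin reductase TRXR1 (TRXR1_HUMAN, c1081247_g1_i1), which keeps thioredoxin reduced. TRXR1 was at 4.56, 8.26 and 17.3 TPM in DMSO 1, 2 and 3 and 27.7, 20.5 and 26.9 TPM in iMDK 1, 2 and 3. Its groups did not overlap, iMDK being the higher, but the log2 difference of 1.46 ± 0.45 (SE) did not pass (limma adjusted p = 0.270). Peroxiredoxin PRDX5 (c1079546_g4_i2) was at 88.7 ± 26.9 and 124 ± 18.4 TPM in DMSO and iMDK (SD, n = 3 per group, limma adjusted p = 0.566), narrowly without overlap. Its gene sum overlapped and had a log2 difference of 0.12.

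Of the enzymes that handle thiols in the endoplasmic reticulum, 3 transcripts were tested, limma called 0, 1 had an unadjusted p under 0.05, and the median log2 difference was 0.02 (2 above 0 and 1 below). Over the 4 gene sums the median was -0.08, with 0 above 0 and 4 below. PDIA6 (c1079590_g1_i1), a disulfide isomerase, was at 133 ± 32.1 and 210 ± 33.7 TPM in DMSO and iMDK (limma adjusted p = 0.346), without overlap. The sum of its gene, however, overlapped and had a log2 difference of -0.07. PDIA4 was at 97.6 ± 21.5 and 90.4 ± 14.3 TPM (limma adjusted p = 0.887). Metalloreductases, which reduce iron or copper at membranes, had 3 tested transcripts, 0 called by limma and 0 with an unadjusted p under 0.05, with a median log2 difference of 0.69 over transcripts and 0.47 over gene sums. STEA4 was at 28.5 ± 10.2 and 56.3 ± 43.1 TPM, with iMDK 2 at 105 TPM (limma adjusted p = 0.753). FRRS1 was at 1.27 ± 0.354 and 2.44 ± 1.09 TPM (limma adjusted p = 0.638), without overlap, as for 17% of all tested transcripts.

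The cytochromes P450 and their reductase, which also draw electrons from NADPH, held the only called transcript of all 25 tested list transcripts. CP2J6 (c1070122_g1_i1), a monooxygenase, was at 0.863, 1.19 and 1.34 TPM in DMSO and 97.4, 100.4 and 45.4 TPM in iMDK (limma adjusted p = 0.00202). Every iMDK library was above every DMSO library, but its response to iMDK was known when the list was made. With the replicate number as a block the call was lost (limma adjusted p = 0.0508). CP3A5 was at 4.17 ± 0.300 and 3.45 ± 0.923 TPM (limma adjusted p = 0.819), and the list of 3 tested transcripts had a median log2 difference of 0.14, against -0.02 over its 4 tested gene sums.

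Rac exchange factors, which load the GTPase that NOX1 needs, had 2 tested transcripts, of which limma called 0 and 0 had an unadjusted p under 0.05. TIAM1 had DMSO and iMDK means of 7.22 ± 2.94 and 6.86 ± 2.42 TPM (limma adjusted p = 0.965), a log2 difference of -0.05 ± 0.37 (SE), and the difference of its gene sum was 0.04. DOCK4 was at 1.26 ± 1.09 and 1.84 ± 1.13 TPM (limma adjusted p = 0.823), with DMSO 3 at 0.039 TPM. The sum of its gene was at 1.51 to 2.14 TPM in DMSO and 2.43 to 3.20 TPM in iMDK. These sums did not overlap, as for 16.6% of all tested assembled genes. Their log2 difference was 0.61 ± 0.30 (SE, limma adjusted p = 0.549).

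Around PXDN, the basement membrane list (laminins, perlecan, collagen VII and the FRAS and FREM proteins) had 3 tested transcripts from 11, with 0 called by limma, 0 with an unadjusted p under 0.05 and a median log2 difference of 0.28, or 0.42 over 6 tested gene sums. LAMB3, a chain of the laminin under epidermis, was at 3.38 ± 1.99 and 4.71 ± 0.332 TPM in DMSO and iMDK (limma adjusted p = 0.769). FREM2, which holds epidermis to dermis, was at 5.30 ± 1.91 and 4.06 ± 1.01 TPM (limma adjusted p = 0.819), whereas the sum of its gene went the other way, with a log2 difference of 0.60 (9.07 ± 6.05 and 12.0 ± 2.79 TPM, limma adjusted p = 0.813). Collagen processing enzymes had 3 tested transcripts, 0 called by limma, 0 with an unadjusted p under 0.05 and a median log2 difference of -0.01, or 0.22 over 3 gene sums. The lysyl oxidase LYOX, which cross-links fibrillar collagen and releases hydrogen peroxide, was at 14.0 ± 2.46 and 20.7 ± 7.07 TPM (limma adjusted p = 0.594). PCOC1, an enhancer of procollagen cleavage, was at 23.0 ± 8.82 and 12.2 ± 4.98 TPM (limma adjusted p = 0.484), without overlap, while the sum of its gene had a log2 difference of -0.13. None of the collagen IV chains that PXDN cross-links was among the names used here, and they were not analysed.

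**Figure D4:**
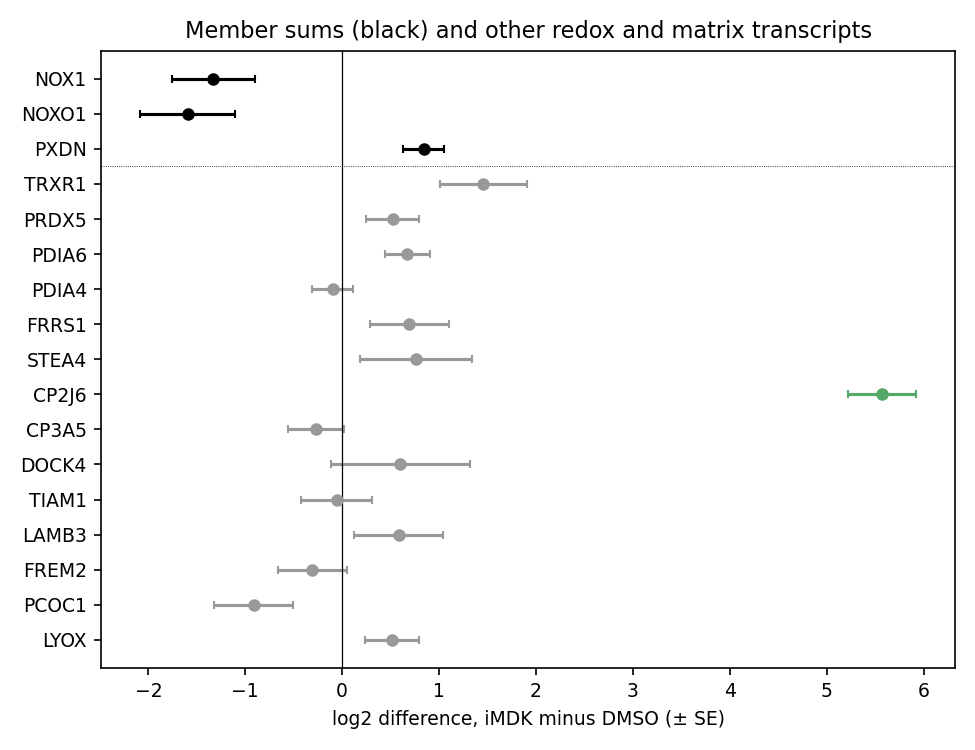
Log2 difference between iMDK and DMSO (horizontal axis, log2(value + 0.5), iMDK minus DMSO) with bars of 1 SE, for the sums of NOX1, NOXO1 and PXDN (black, above the dotted line, shown without a test) and for the named transcripts of the other lists. CP2J6 (green) was called by limma and the others (grey) were not.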

How the data were processed

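Nextera XT libraries of mRNA from axolotl limbs at 11 dpa (3 given DMSO, 3 given iMDK) were sequenced. According to the methods and the submitters' processing notes, the authors trimmed reads with Trimmomatic, quantified them with kallisto against an assembled axolotl transcriptome and tested with DESeq2. No source used here gives their versions. The deposited signal is TPM per transcript, scaled by the authors with a TMM factor per library; it holds no counts, so no counting interval was computed and a count test did not apply. One limit of such values is that kallisto divides reads among similar transcripts, for which reason values were also summed over all isoforms of an assembled gene.

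Members and lists were chosen with earlier results of these data known. Names came from 1675 transcripts that the study annotated by blastx and listed as differentially expressed in another experiment, of limbs with a sutured skin flap. Of these, 927 were tested. No assembly identifier matched RefSeq, so no sequence or position is given. The test was limma 3.58.1 (2-sided, empirical Bayes with trend, R 4.3.3) on log2(value + 0.5), for features at 1 TPM or more in 3 or more libraries. Fold changes on this scale understate the change of low transcripts. From each list, called transcripts and the 2 with the smallest p were named, and for each member the 3 named genes with the highest r. Files were read with the data.table package (version 1.17.8), and figures were made in Python 3.11.15 with pandas 2.3.3 and matplotlib 3.10.9. The procedure was tested on simulated data before use. Alternatives were other pseudocounts, filters, scalings and variance settings, the replicate number as a block, and each library left out.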

Additional observations from a re-analysis of the deposited data

How the results depend on the processing

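The log2 differences of the sums were recomputed with other pseudocounts, other scalings and each library left out. They were -1.62 to -1.002 for NOX1, -2.02 to -1.17 for NOXO1 and 0.70 to 0.94 for PXDN. The ends of these ranges came from leaving out a library. With 3 libraries per group, that cannot move a difference by more than the spread between replicates, so the width of the ranges is no sign of stability. The direction of the differences is no sign of stability either, since the groups did not overlap in the genes chosen. Neither the filter nor the replicate block can move a difference of means. NOX1 and the minor PXDN transcript did not reach the filter of at least 5 TPM in 3 libraries and have no value there. No member was called under any alternative. The r of NOX1 with NOXO1 was 0.888 to 0.902 with other pseudocounts, on the linear scale and with the TMM scaling undone. The main transcripts, which carry nearly all of each sum, gave a value in the same range. That r contains the difference between treatments in both genes, so its narrow range is no sign of stability. For deviations from the group means r was 0.686.

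The count of 280 called transcripts was 427 with no filter, 168 with a filter of at least 5, 1303 without the trend and 78 to 138 with each library left out. The count of 24 called assembled genes was 9 with a pseudocount of 0.1, 438 with no filter, 38 with the filter at 5 TPM, 14 when TMM scaling was undone, 820 without the trend and 0 to 3 with each library left out. With the replicate number as a block these counts were 30 and 0, and list calls fell from 1 to 0 as CP2J6 was lost at a log2 difference that stayed at 5.57 (limma adjusted p over its alternatives 1.03e-06 to 0.0508, the last with the block). Over all tested transcripts, deviations from the group means had r = 0.0622, 0.0391 and 0.0103 between libraries with the same number. Between libraries with different numbers r was -0.0835 to 0.0507. Values this small cannot show whether the numbers pair the samples. For NOX1 the deviations were -0.065, -0.586 and 0.652 in DMSO 1, 2 and 3 and -0.067, -0.486 and 0.553 in iMDK 1, 2 and 3. PXDN did not follow the numbers, at -0.231 in DMSO 2 and 0.291 in iMDK 2. The cause of the changes in counts was not tested, and some of the fits differed in their number of features or libraries. The depth behind each value is unknown.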
